A study of Mus musculus with 2 samples.

Results

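The genes described here are the proteasome subunits of the mouse, taken as every gene symbol made of Psma, Psmb, Psmc or Psmd and a number, without the immune subunits Psmb8 and Psmb9. The rule used names only and no measured value, and it took 37 of the 32285 features. They were 17 subunits of the core particle, 8 alpha and 9 beta, and 20 genes of the regulatory cap, 6 ATPases, 11 other cap subunits and 3 chaperones of cap assembly. All of them were followed as UMIs (unique molecular identifiers, each standing for 1 captured RNA molecule) in 2 droplet libraries of MC38 tumours, 1 per group. MC38 is a mouse colon adenocarcinoma line grown here as tumours. The control library carries the genotype label Mbtps1 WT and the other the label Mbtps1 KD, called knockdown here, although the series text speaks of a knockout, and its title is SHM. The question was what loss of Mbtps1 does to the cells in and around the tumour. Mbtps1 encodes the site-1 protease of the Golgi. The labels give no agent, clone, host strain, sex, age or number of pooled tumours, and they do not say how Mbtps1 was lowered or in which cells.

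The proteasome is the barrel-shaped protease that breaks down proteins tagged with ubiquitin. Outer rings of alpha subunits gate the barrel, inner rings of beta subunits cut, and a cap with a ring of ATPases and a lid of further subunits recognises, unfolds and feeds in the substrate. The cutting is done by the beta subunits Psmb5, Psmb6 and Psmb7, and interferon gamma replaces them with Psmb8, Psmb9 and Psmb10, which changes the peptides available to MHC class I. When proteasome activity falls short, the membrane-bound factor Nfe2l1 is released and raises the transcription of many subunits through antioxidant response elements.

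The name "constitutive" did not hold for all 37 genes. Psmb10 is itself the inducible partner of Psmb7, Psmb11 is the form of thymic epithelium, Psma8 is the form of the testis, and Psmd5, Psmd9 and Psmd10 help to assemble the cap and leave it. The data separated the rare tissue forms from the rest. Psma8 had 57 UMIs in all kept control cells and 35 in all kept knockdown cells, and Psmb11 had 10 and 21, while each of the other 35 members had at least 2045 UMIs in the tumour-like control cells.

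RefSeq windows of 300 bases, 250 before to 50 after the gene start on GRCm38.p6, were found for 30 of the 37 members, with 32 windows in all. The core of the antioxidant response element, TGACNNNGC on either strand, stood in 5 of the 32 windows (15.6%), those of Psmb5, Psmb6, Psmc6, Psmd9 and Psmd12, against 12.4% of all 32851 windows of this length. A CCAAT box on either strand stood in 12 of the 32 (37.5%) against 37.4% of all windows. The first sequences below are the windows of the 3 members that were lower by at least 20% in tumour-like knockdown cells: Psmb4 (chr3:94886909-94887208, minus strand), Psmc5 (chr11:106255935-106256234, plus strand) and Psmd8 (chr7:29180624-29180923, minus strand). None of the 3 held TGACNNNGC, which says only that these letters are not in the window.
Psmb4: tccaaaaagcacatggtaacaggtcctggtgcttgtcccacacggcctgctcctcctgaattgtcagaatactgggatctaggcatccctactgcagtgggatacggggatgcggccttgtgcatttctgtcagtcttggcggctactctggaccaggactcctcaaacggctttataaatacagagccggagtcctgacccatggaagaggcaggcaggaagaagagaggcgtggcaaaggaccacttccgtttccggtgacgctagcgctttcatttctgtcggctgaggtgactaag
Psmc5: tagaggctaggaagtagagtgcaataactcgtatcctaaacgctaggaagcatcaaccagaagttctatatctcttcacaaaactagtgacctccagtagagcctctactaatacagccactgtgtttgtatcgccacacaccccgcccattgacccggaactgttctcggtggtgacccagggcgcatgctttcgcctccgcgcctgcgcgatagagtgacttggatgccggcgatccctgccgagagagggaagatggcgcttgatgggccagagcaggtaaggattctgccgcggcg
Psmd8: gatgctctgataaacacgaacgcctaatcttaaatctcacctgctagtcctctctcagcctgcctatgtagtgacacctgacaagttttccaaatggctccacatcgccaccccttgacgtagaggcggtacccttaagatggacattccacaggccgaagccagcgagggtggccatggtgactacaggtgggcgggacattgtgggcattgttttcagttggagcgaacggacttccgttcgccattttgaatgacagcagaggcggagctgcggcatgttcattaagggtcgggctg
For comparison, Psmb5 (chr14:54617946-54618245, minus strand), a cutting subunit, and Psmc6 (chr14:45329574-45329873, plus strand), an ATPase, held the motif, shown in capitals. In Psmb5 it began 47 bases before the gene start, and in Psmc6 it began 227 bases before it and read on the opposite strand.
Psmb5: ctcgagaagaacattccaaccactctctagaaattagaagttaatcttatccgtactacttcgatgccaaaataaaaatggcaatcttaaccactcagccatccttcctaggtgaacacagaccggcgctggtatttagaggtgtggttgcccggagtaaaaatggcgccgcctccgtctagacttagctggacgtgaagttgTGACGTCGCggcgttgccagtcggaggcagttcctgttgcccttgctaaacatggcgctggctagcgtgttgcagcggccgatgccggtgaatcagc
Psmc6: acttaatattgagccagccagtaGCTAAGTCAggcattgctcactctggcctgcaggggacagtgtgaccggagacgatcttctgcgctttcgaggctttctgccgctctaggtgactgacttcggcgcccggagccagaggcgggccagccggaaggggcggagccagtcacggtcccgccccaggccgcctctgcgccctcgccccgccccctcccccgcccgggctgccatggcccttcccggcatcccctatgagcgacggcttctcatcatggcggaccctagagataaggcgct

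The control matrix held 177399315 UMIs and the knockdown matrix 174190399, and 11007 and 15362 cells were kept, with medians of 8251 and 5228 UMIs. Both numbers exceed the 6000 cells that were loaded per channel, and 45 barcodes of kept cells occurred in both libraries. Tumour-like cells numbered 3749 and 6911, macrophage/monocyte-like cells 4003 and 4246, and T-like cells 477 and 1346. Mbtps1 stood at 28.9 CPM in tumour-like control cells and at 12.4 CPM in tumour-like knockdown cells. CPM are UMIs of the gene scaled to a common total for each class and library. It was 19.5 and 18.6 CPM in macrophage/monocyte-like, 37.0 and 35.8 in T-like, 25.9 and 23.9 in NK-like and 25.8 and 24.6 in dendritic-like cells. Mast/basophil-like cells held 21.5 and 5.99 CPM, epidermis-like cells 54.5 and 43.0, and pericyte-like cells 34.5 and 36.7. The mast/basophil-like values come from 58 and 46 cells with 417659 and 166824 UMIs of all genes. They rest on very few Mbtps1 UMIs, and no interval was computed, so they show no lowering in that class. Below, knockdown cells are cells of the knockdown library, whatever their Mbtps1 level. Droplets of over 100 and up to 400 UMIs, which hold free RNA, carried 7.88% of control and 10.3% of knockdown UMIs. With 1 library per group no difference below has a replicate check, and all intervals are exact 95% intervals for counting error only.

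Over cells of all depths, tumour-like cells gave the largest part of their RNA to the proteasome of all 11 classes. This held in both libraries and for core and cap alike, but tumour-like cells were also the deepest class. The 17 core genes summed to 4880.2 CPM in control and 4647 CPM in knockdown tumour-like cells, and the 20 cap genes to 2424 and 2239.9 CPM. Together the members made 0.730% and 0.689% of the tumour-like UMIs. Macrophage/monocyte-like cells held 3430 and 3457 CPM of core and 1661 and 1659.7 CPM of cap. At 2000 to 5000 UMIs per cell their core exceeded that of tumour-like cells, 3357 against 3286 CPM in control and 3424 against 3274 CPM in knockdown. At 5000 to 10000 UMIs it did so in control (3400 against 3336 CPM) but not in knockdown (3512 against 4082 CPM). At 10000 to 20000 UMIs tumour-like core was higher in both libraries (4412 against 3551 and 4746 against 3574 CPM). The part of depth in the order was not tested. T-like cells held 3028 and 2626 CPM of core, and NK-like cells 2839 and 2674 CPM. Neutrophil-like cells, with only 60 and 194 cells, were the lowest in both libraries, at 1793 and 2203 CPM of core. The order between these ends was not stable: mast/basophil-like cells stood at rank 2 of 11 for core in control (4659 CPM) and at rank 6 in knockdown (3123 CPM), from 58 and 46 cells. Those cells also differed in median UMIs (4596 and 2150.5), ribosomal share (28.2% and 21.1%) and the gene Xist (342 and 929 CPM). The part of these differences in the rank was not tested. T-like and NK-like cells exchanged places between the libraries, and their knockdown intervals overlapped (2570 to 2684 and 2588 to 2761 CPM). Free droplets held 3631 and 4018 CPM of core and 1967 and 1868 CPM of cap, between the levels of the lymphoid and the tumour-like cells.

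**Figure D1:**
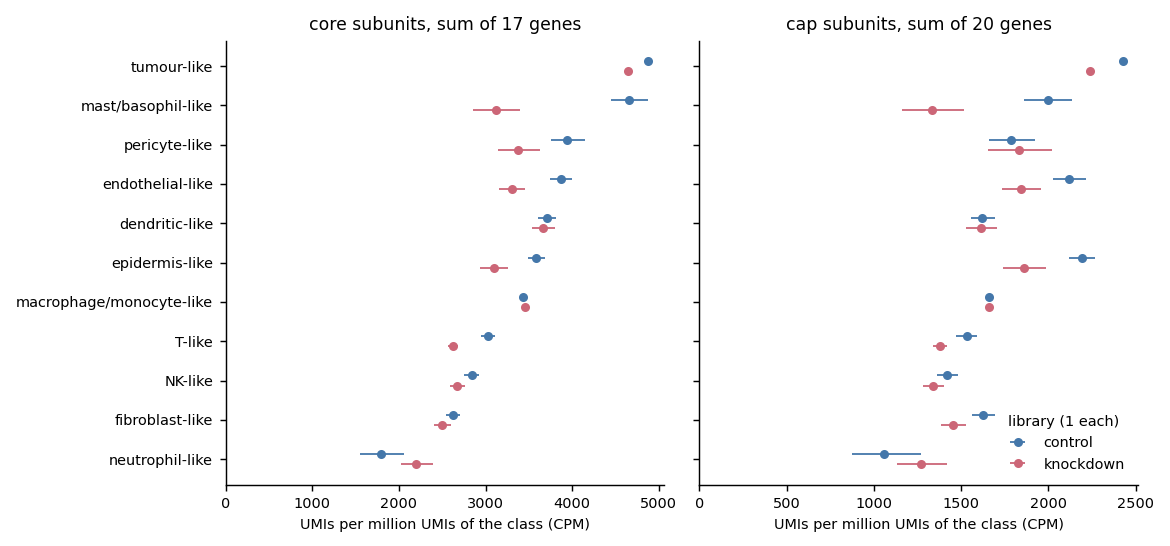
Summed core (left) and cap (right) subunits in CPM of the class sum, for each class and library, with exact 95% Poisson intervals as bars. Tumour-like cells are at the right end in both libraries (4880 and 4647 CPM of core) and neutrophil-like cells at the left end. The classes are not matched for UMIs per cell.

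Core UMIs outnumbered cap UMIs in each of the 11 classes, by 1.62 to 2.35 times. Core UMIs were 2.01 and 2.07 times the cap UMIs in control and knockdown tumour-like cells, 2.07 and 2.08 times in macrophage/monocyte-like cells and 1.98 and 1.91 times in T-like cells. Fibroblast-like (1.62 and 1.72) and epidermis-like cells (1.64 and 1.66) had relatively more cap, and dendritic-like (2.29 and 2.27) and mast/basophil-like cells (2.34 and 2.35) relatively more core. Subunits present in equal copies in the particle differed widely in UMIs. The part of overlaps with other genes (given under the processing) in these counts was not tested. A 3′ UMI stands for a molecule whatever the length of the gene, so levels were not divided by length. Psma7, an outer ring subunit, was the most abundant member, at 739 CPM in control tumour-like cells and 805 CPM in knockdown cells, and made 15.1% and 17.3% of the core sum. In the cap the most abundant was Psmd8, a lid subunit, at 275 and 203 CPM. Psmc1 was the scarcest ATPase at 69.5 and 79.8 CPM, and the chaperone Psmd10, known as gankyrin, was the scarcest of the 35 common members, with 2045 and 1968 UMIs.

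The makeup of the core also differed by cell type. Psmb1, a non-cutting beta subunit, made 12.6% and 11.9% of the core sum in T-like cells but 7.44% and 6.73% in tumour-like cells. Psma1 made 2.59% and 2.80% in tumour-like cells and 4.98% and 4.38% in macrophage/monocyte-like cells. In the cap, the lid subunit Psmd7 made 9.08% and 9.73% of the tumour-like sum and 5.07% and 4.34% of the T-like sum. These 3 differences had the same direction in both libraries. They were picked after their values were seen.

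In tumour-like cells most members were slightly lower in the knockdown library, and 3 were lower by at least 20%. The cells of the knockdown library were shallower, and the direction of the sums was not the same at all depths (given by depth range after the clusters). The core sum was 0.952 times the control value (0.948 to 0.956) and the cap sum 0.924 times (0.919 to 0.929). Psma8 had under 20 UMIs over both libraries, and of the other 36 members 26 had a ratio below 1 and 10 above 1, while 43.3% of all 17230 genes with that many UMIs were below 1. Lower by at least 20% were 3 of 36 members, against 12.4% of all genes, and higher by at least 25% was 1, against 23.2% (these 2 limits are the same fold in either direction). Past 1.5-fold there were 0 lower and 0 higher, against 5.1% and 13.4% of all genes. The median log2 ratio of the members was -0.11 and that of all genes 0.05. The interval lay below 1 for 22 members (24.1% of all genes) and above 1 for 9 (32.5% of all genes). More UMIs give a narrower interval, and a gene needed only 20 UMIs to be among all genes. The interval shares here and below are therefore not matched for UMIs. At this depth even a difference of a few percent exceeds the counting error, which is not the error between tumours.

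By role, the 6 ATPases of the cap had the lowest ratio of their sums, 740.1 CPM in control and 661 CPM in knockdown (0.894 times, 0.884 to 0.904). Psmc5 went from 182 to 142 CPM (0.781 times), past the limit, and Psmc2 (111 and 93.1 CPM) and Psmc4 (106 and 89.8 CPM) stood at 0.842 and 0.846 times. Psmc1, of the same ring, was higher, with 69.5 and 79.8 CPM (1.15 times, 1.11 to 1.19). The ATPases thread the substrate into the barrel, and their ratios were not equal. Among the other cap subunits, Psmd8 went from 275 to 203 CPM (0.738 times, 0.724 to 0.752), the lowest ratio of all members. Psmd12, another lid subunit, fell short of the limit at 141 and 115 CPM (0.820 times). Psmd1, the large scaffold subunit of the base, was higher, at 126 and 145 CPM (1.15 times, 1.12 to 1.18). Psmd14, the enzyme that removes ubiquitin chains from substrates, had 145 and 154 CPM (1.06 times). The 3 assembly chaperones summed to 127 and 123 CPM (0.965 times).

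In the core, the alpha subunits as a sum were nearly level, 2398 and 2361 CPM (0.984 times), with Psma7 higher (1.09 times, 1.079 to 1.102) and Psma2 lower (329.8 and 272 CPM, 0.824 times). The beta subunits summed to 2482 and 2286 CPM (0.921 times). Psmb4, a structural beta subunit, went from 347 to 272 CPM (0.784 times, 0.771 to 0.797), and Psmb3, another, from 409 to 454 CPM (1.11 times). All 3 constitutive cutting subunits were below 1: Psmb6 at 0.860 times, Psmb5 at 0.897 times and Psmb7 at 0.966 times. The only member higher by at least 25% was the thymic Psmb11, with 10 and 16 UMIs in all, and its interval ran from 0.637 to 3.68.

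**Figure D2:**
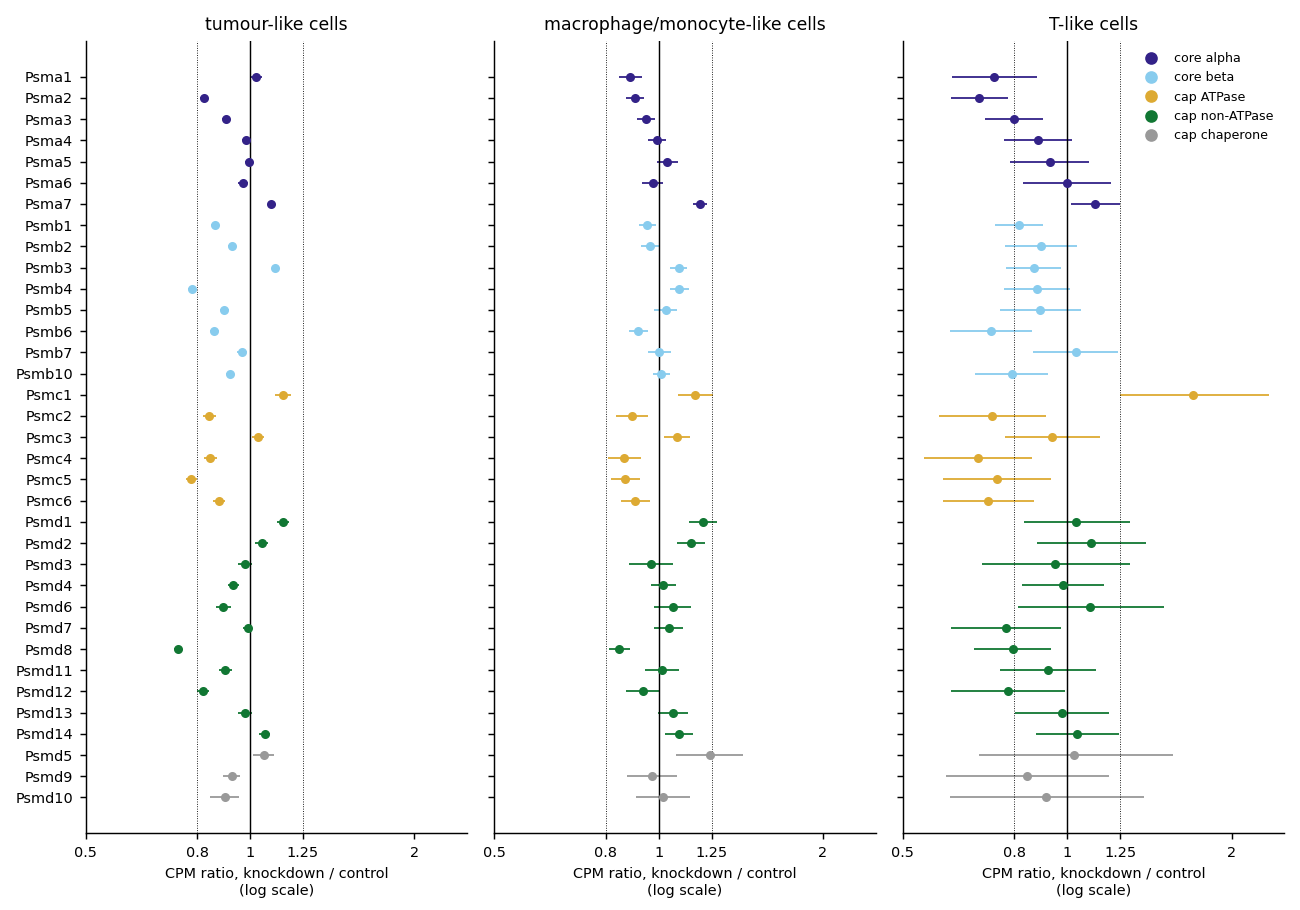
CPM ratio of knockdown over control for the 35 common members (all but Psma8 and Psmb11) in 3 classes on a log axis, with exact 95% intervals for counting error as bars and dotted lines at the limits of 20% lower and 25% higher. In tumour-like cells Psmb4, Psmc5 and Psmd8 lie left of the lower line, in macrophage/monocyte-like cells no member passes either line, and in T-like cells 12 lie left of it and Psmc1 right of the upper one.

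The 6 tumour-like clusters held different parts of the class in the 2 libraries. In control the largest was cluster 6 with 1033 cells, against 409 in knockdown, and in knockdown the largest were cluster 9 with 1919 cells and cluster 4, led by Cox6a2 and Ube2c, with 1765, against 639 and 659 in control. Cluster 4 had the most core RNA (5852 and 5475 CPM) and cluster 6 the least cap RNA (2039 and 1790.0 CPM). The core ratio ranged from 0.883 in cluster 6 to 1.01 in cluster 5, and the cap ratio from 0.868 in cluster 4 to 0.944 in cluster 5. Psmd8 had a ratio of 0.670 to 0.762 over the 6 clusters, Psmc5 0.709 to 0.790 and Psmb4 0.752 to 0.867, each with its interval below 1 in 6 of 6. Psma2, Psmb1, Psmc2, Psmc4, Psmc6 and Psmd12 were also below 1 in 6 of 6 by their intervals. Psmd1 was the only member with its interval above 1 in 6 of 6, at 1.09 to 1.15. The share of all genes whose intervals did the same in 6 of 6 was not computed, so these counts have no baseline. The clusters come from the same 2 libraries and are not replicates.

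**Figure D3:**
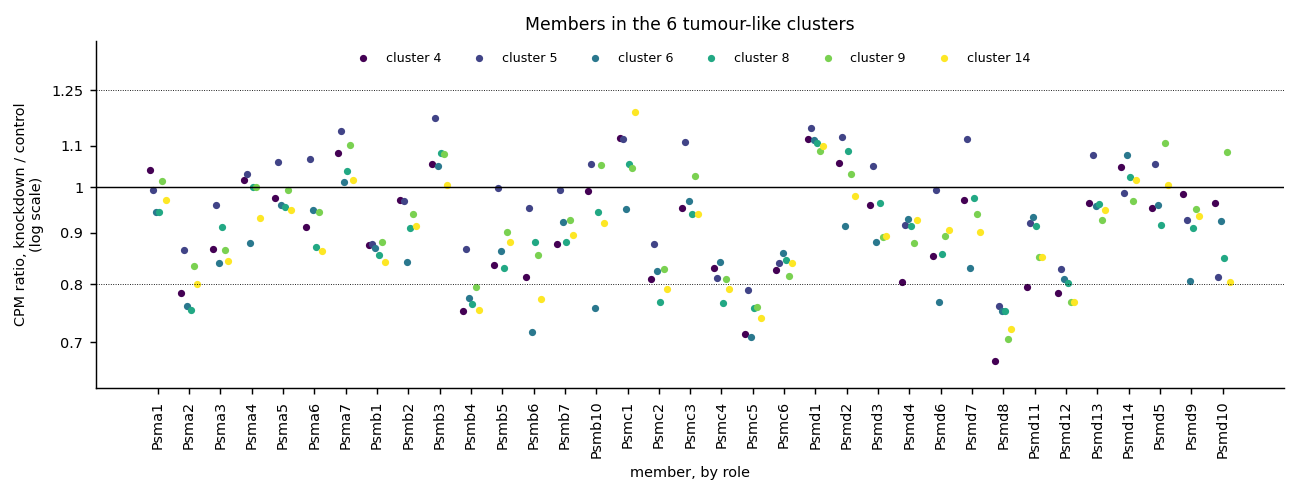
CPM ratio of knockdown over control (log axis) for each common member in each of the 6 tumour-like clusters, 1 point per cluster. The points of Psmd8 lie between 0.670 and 0.762 and those of Psmd1 between 1.09 and 1.15, while those of Psmb10 run from 0.758 to 1.05.

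Across the 6 clusters, the Spearman correlation of core with cap levels was 0.886 in each library. With the summed level of a cell cycle list it was 0.714 in control and 0.829 in knockdown for cap, and 0.486 and 0.714 for core. With an interferon gamma list it was -0.829 and -0.257 for cap, and -0.543 and -0.314 for core. Over 13 macrophage/monocyte-like clusters core had a positive correlation with that list, 0.527 and 0.687, and cap 0.03 and -0.06. These are descriptions over few clusters that share libraries and depth.

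The depth of the cells moved with the tumour result. Median UMIs per tumour-like cell were 23047 in control and 13695 in knockdown, and in control the share of proteasome UMIs was higher in deeper cells. There the core sum was 3336 CPM in tumour-like cells of 5000 to 10000 UMIs, 4412 CPM at 10000 to 20000, 4994 CPM at 20000 to 40000 and 5127 CPM above that. In knockdown it was 4082, 4746, 4744 and 4553 CPM over the same ranges. Within a range, the knockdown core was therefore 1.22 times control at 5000 to 10000 UMIs (1.19 to 1.26), 1.08 times at 10000 to 20000 (1.07 to 1.085), 0.950 times at 20000 to 40000 (0.944 to 0.956) and 0.888 times above 40000 (0.874 to 0.902). The cap ratios were 1.22, 1.05, 0.961 and 0.893. The summed difference thus changed direction with depth. In the shallower cells core was 1.54 times control at 500 to 2000 UMIs (60 control and 663 knockdown cells) and 0.996 times at 2000 to 5000, and cap 1.03 and 0.996 times. At 500 to 2000 UMIs the cells also differed otherwise, with ribosomal genes at 11.6% of control and 22.2% of knockdown UMIs. The part that depth plays in the difference was not tested. These ranges were chosen after the data were seen.

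Single members varied over the ranges too. At 500 to 2000 UMIs, 12 of 35 members were below 1 (60.4% of all genes), 4 lower by at least 20% (47.7%) and 18 higher by at least 25% (28.7%). At 2000 to 5000 UMIs, 16 were below 1 (41.4%), 4 lower (18.1%) and 6 higher (31.9%). At 5000 to 10000 UMIs, 4 of 35 members were below 1 (51.6% of all genes), with 0 lower by at least 20% (25.7%) and 14 higher by at least 25% (22.7%). At 10000 to 20000 UMIs, 15 of 35 members were below 1 (53.1% of all genes) and 0 were lower past the limit, against 24.5% of all genes, while Psmb3, Psmc1, Psmd1 and Psmd14 were higher past it (22.7% of all genes). At 20000 to 40000 UMIs, 23 of 35 were below 1 (42.6% of all genes) and Psmd8 and Psmb4 were lower past the limit (14.5% of all genes), with 0 higher (23.3%). Above 40000 UMIs, with only 82 knockdown cells, 29 of 35 were below 1 (41.7% of all genes), 6 lower (13.7%) and 0 higher (23.2%). Psmd8 stood at 0.991, 0.850, 0.723 and 0.681 times control over the ranges from 5000 UMIs upward. Psmb4 stood at 0.951, 0.861, 0.777 and 0.741 times. Psmc5 stood at 1.18, 0.939, 0.802 and 0.778 times, and at 0.596 times (0.457 to 0.783) at 2000 to 5000 UMIs, its lowest value. Psmd1 stood at 1.498, 1.29, 1.22 and 1.12 times. Over all 6 ranges, Psmb4 and Psmc4 were below 1 in each, and Psma7, Psmc1 and Psmd1 above 1 in each. The share of all genes on the same side of 1 in every range was not computed.

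**Figure D4:**
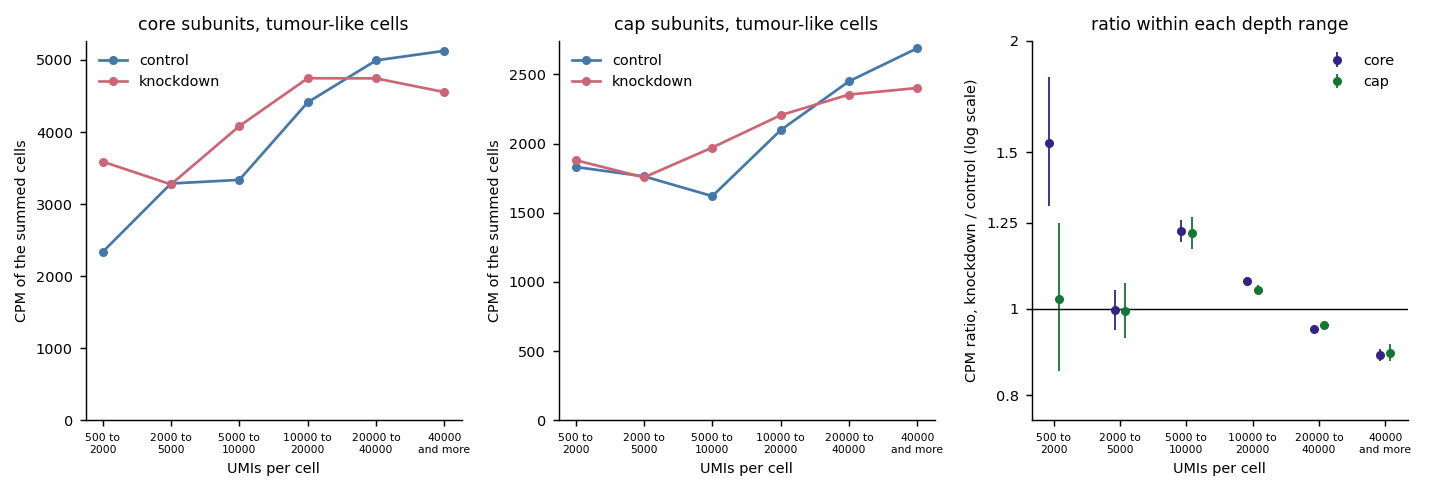
Tumour-like cells split by UMIs per cell: summed core and cap subunits in CPM for each library (left and middle), and the ratio of knockdown over control with exact 95% intervals for counting error on a log axis (right). Core rises from 3336 to 5127 CPM in control between 5000 UMIs and the deepest cells, and the ratio passes from 1.22 to 0.888.

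In macrophage/monocyte-like cells the intervals of both sums held 1 over all depths, but not within each depth range. Core was 1.01 times control (0.998 to 1.02) and cap 0.999 times (0.985 to 1.01). Within ranges, core was 1.41 times (1.27 to 1.57) at 500 to 2000 UMIs, 1.02 times (0.999 to 1.04) at 2000 to 5000, 1.03 times (1.02 to 1.05) at 5000 to 10000 and 1.01 times (0.975 to 1.04) at 10000 to 20000. Cap was 0.939 times (0.824 to 1.07) in the first range and then 1.06 times in each of the others (1.02 to 1.09, 1.04 to 1.08 and 1.01 to 1.11). In the first range ribosomal genes made 9.82% of control and 15.8% of knockdown UMIs. Median UMIs were 6366 in control and 3896 in knockdown cells, and the part of depth was not tested. Of 36 members tested, 0 were lower and 0 higher past the limit, against 8.69% and 18.8% of all 14053 genes, and 17 were below 1, against 41.5% of all genes. At 2000 to 5000 UMIs 0 of 35 were lower (16.2% of all genes) and 4 higher (19.9%). By the interval alone, 10 members were below 1 and 9 above 1, against 12.6% and 23.3% of all genes. Leaving aside the rare Psma8, the lowest was Psmd8, at 214 and 181 CPM (0.848 times), followed by Psmc4 (80.7 and 69.8 CPM, 0.865 times) and Psmc5 (104 and 90.2 CPM, 0.868 times). Psma7 (386 and 460.2 CPM, 1.19 times) and Psmd1 (92.1 and 111 CPM, 1.21 times) were higher, and Psmb4, low in tumour-like knockdown cells, was 219 and 239 CPM (1.09 times). The chaperone Psmd5 came closest to the limit at 15.7 and 19.5 CPM (1.24 times). All class comparisons use the same 2 libraries, so a direction seen in several classes is not independent. In the free droplets of these libraries the same members stood at 0.842 (Psmd8), 0.812 (Psmc4), 0.796 (Psmc5), 1.52 (Psma7) and 1.43 (Psmd1) times control. With an estimated free RNA share of 6.29% in control and 13.97% in knockdown subtracted, the core ratio was 0.985.

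T-like cells had 13 members past the limit. Core was 3028 CPM in control and 2626 CPM in knockdown (0.867 times, 0.837 to 0.898) and cap 1531 and 1378 CPM (0.9003 times, 0.857 to 0.946). Without Psma8 and Psmb11, which had too few UMIs, 35 members remained, and 12 were lower past the limit and 1 was higher, against 16.1% and 23.1% of all 10341 genes, and 27 were below 1, against 45.4% of all genes. The interval lay below 1 for 14 (7.69% of all genes) and above 1 for 2 (10.3%), and past 1.5-fold there were 0 lower (6.03%) and 1 higher (11.3%). The interval shares are again not matched for UMIs. The median log2 ratio was -0.16, and that of all genes was 0.04. Within depth ranges the count of lower members did not stay above the share of all genes. It was 6 of 35 at 500 to 2000 UMIs (36.6% of all genes), 8 at 2000 to 5000 (22.7%) and 14 at 5000 to 10000 (16.8%), and the members higher numbered 10 (25.3%), 2 (24%) and 5 (38.7%). Of the 6 ATPases, 4 were among the 12: Psmc4 (83.1 and 57.0 CPM, 0.686 times), Psmc6 (117 and 83.9 CPM, 0.717 times), Psmc2 (0.729 times) and Psmc5 (0.742 times). Psmc1 was the exception of the ring, at 33.4 and 56.7 CPM (1.70 times, 1.249 to 2.34) from 55 and 179 UMIs. In the alpha ring, Psma2 went from 289 to 199 CPM (0.690 times, 0.611 to 0.779), Psma1 was at 0.735 times and Psma3 at 0.798 times. The cutting subunit Psmb6 had 142 and 103 CPM (0.725 times) and the inducible Psmb10 169 and 134 CPM (0.791 times). Psmd7, Psmd8 and Psmd12 of the lid completed the list, at 0.771, 0.794 and 0.779 times.

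The T-like values rest on few UMIs per gene and on shallow cells, with medians of 2797 UMIs in control and 2018.5 in knockdown. The free RNA share estimated from C1q genes, which T cells do not make, was 8.14% in control and 17.1% in knockdown T-like cells. With that share subtracted the core ratio was 0.786 and the cap ratio 0.856, lower than without. Cell depth moved with the result here too: core was 1.29 times control in cells of 500 to 2000 UMIs, 0.888 times at 2000 to 5000 and 0.882 times at 5000 to 10000. At 500 to 2000 UMIs ribosomal genes made 14.2% of control and 21.0% of knockdown UMIs. Core was below 1 in each of the 8 T-like clusters, from 0.695 in cluster 112 to 0.996 in cluster 108, and by its interval in 4 of them. Cap was above 1 in clusters 100, 103 and 108 (1.05, 1.06 and 1.27 times), with intervals that held 1. It was below 1 in the other T-like clusters. Cluster 112 held 46 control and 300 knockdown cells, so its weight differed between the libraries.

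Dendritic-like cells, 242 and 209 in number, had intervals that held 1 for both sums, with core 0.989 times (0.944 to 1.04) and cap 0.996 times control (0.928 to 1.07). Of 35 members, 5 were lower and 4 higher past the limit, against 20.9% and 27% of all genes, and 22 were below 1, against 47.5% of all genes. The interval lay below 1 for 2 (7.41% of all genes) and above 1 for 3 (9.8%). Psmd1 (62.2 and 116 CPM, 1.87 times, 1.37 to 2.56) and Psmc4 (104 and 63.4 CPM, 0.610 times, 0.431 to 0.851) were among those whose interval did not hold 1. In NK-like cells core was 0.942 times (0.901 to 0.985) and cap 0.943 times (0.885 to 1.004), and 4 of 35 members were lower and 3 higher, against 16.7% and 26.4% of all genes. The interval lay below 1 for 4 (5.91% of all genes) and above 1 for 1 (11%), and 23 were below 1 (42.8% of all genes). Psmc4 was again low (83.6 and 48.5 CPM, 0.580 times, 0.425 to 0.786), as was Psmb1 (358 and 262 CPM, 0.733 times, 0.640 to 0.839).

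The share of the inducible cutting subunits differed between cell types. Psmb8, the partner of Psmb5, made 76.5% and 76.0% of the pair's UMIs in control and knockdown tumour-like cells, 84.3% and 82.0% in macrophage/monocyte-like cells and 87.5% and 84.4% in dendritic-like cells. Psmb9, the partner of Psmb6, made 50.4% and 52.9% of its pair in tumour-like cells, 69.8% and 70.9% in T-like cells and 75.7% and 71.4% in dendritic-like cells. Psmb10, the only inducible gene among the members, made 60.9% and 59.7% of its pair with Psmb7 in tumour-like cells and 63.7% and 63.9% in macrophage/monocyte-like cells. In T-like cells the Psmb10 share was 59.9% (55.3% to 64.4%) in control and 53.3% (49.7% to 56.8%) in knockdown. Epidermis-like cells had the lowest control shares among the 11 classes for Psmb8 (56.0%), Psmb9 (40.4%) and Psmb10 (39.7%), and had 72.0%, 44.9% and 53.3% in knockdown, from 226 and 113 cells. In tumour-like cells the Psmb8 and Psmb5 totals were both lower in knockdown (Psmb8 797 and 694 CPM, 0.871 times). Free droplets held 80.3% and 80.4% of Psmb8 in its pair, within the range of the classes.

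**Figure D5:**
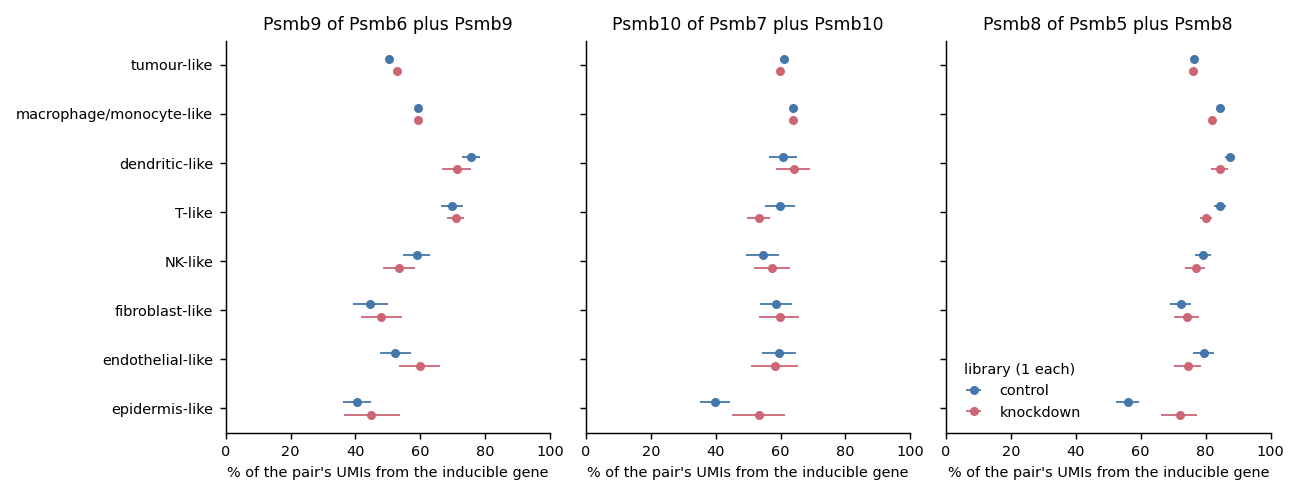
Share of the inducible gene in the UMIs of each pair of cutting subunits, in %, for 8 classes and both libraries, with exact 95% binomial (Clopper-Pearson) intervals. Dendritic-like and T-like cells lie to the right for Psmb9 (75.7% and 69.8% in control), and tumour-like cells near 50.4%.

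A list of 32 other genes of the pathway was taken beside the members in tumour-like cells. Of the 32, 22 were above 1 and 10 below, against 56.7% of all genes above 1, and the median log2 ratio was 0.04, close to the 0.05 of all genes. Past the limit 1 was lower and 0 higher, against 12.4% and 23.2% of all genes. The 1 was Ubb, a polyubiquitin gene, at 1444 and 1128 CPM (0.781 times, 0.775 to 0.787). Ubb was also lower in macrophage/monocyte-like cells (1935 and 1503 CPM, 0.777 times) and T-like cells (2390.02 and 1799.6 CPM, 0.753 times), and in the free droplets (1250 and 962 CPM, 0.770 times). The part of free RNA in the cells' Ubb was not tested. The activator subunits Psme1 (338 and 385 CPM, 1.14 times) and Psme2 (438 and 506 CPM, 1.15 times), the core assembly factor Pomp (1.12 times) and the small cap protein Sem1 (1.12 times) were above 1. So were the unfoldase Vcp (301 and 356 CPM, 1.18 times) and its cofactor Nploc4 (1.20 times). Nfe2l1, which drives subunit genes, was at 99.9 and 116 CPM (1.16 times, 1.13 to 1.20), and the related Nfe2l2 at 53.8 and 55.7 CPM (1.04 times). In T-like cells 5 of the 32 were lower and 7 higher, near the shares of all genes there (16.1% and 23.1%). Psmb8 (723 and 478 CPM, 0.662 times) and Psmb9 (0.762 times) were among the 5.

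The tissue-restricted members were near the limit of detection. Psma8 had 44 UMIs in control macrophage/monocyte-like cells (1.62 CPM, 1.17 to 2.17) and 25 in knockdown (1.36 CPM, 0.878 to 2.003). In tumour-like cells it had 0 UMIs in control, which allows up to 0.0327 CPM by a floor of 3 counts, and 3 in knockdown (0.0305 CPM). Free droplets held 4 and 2 UMIs of Psma8 (0.286 and 0.111 CPM), below the macrophage/monocyte-like level. Psmb11 had 0 and 1 UMIs in macrophage/monocyte-like cells and 10 and 16 in tumour-like cells, about 0.109 and 0.163 CPM, while free droplets held 0.143 and 0.111 CPM.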

How the data were processed

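A pair of droplet libraries from dissociated MC38 tumours was prepared with a 10x 3′ kit, per the labels' protocols. The deposited matrices hold UMI counts per gene for all barcodes and come from Cell Ranger 4, per the file headers. Neither the sources nor the headers used here name the genome build, the annotation or the strand setting. In GENCODE vM21, 14 of the 37 members overlap a gene on the opposite strand, Psmb7 and Psmd1 among them. On the same strand, 8 members overlap another gene. How reads in these overlaps were counted was not tested.

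Kept barcodes had at least 500 UMIs and 250 genes, 20% mitochondrial UMIs at most, and passed an empty-droplet test (1000 draws, false discovery rate 0.01). Scrublet in scanpy 1.11.5 removed 445 control and 809 knockdown doublets. Leiden clusters were named from fixed marker lists and the level of the gene Xist. A cluster under 20 CPM of Xist could be named only tumour-like, and any other cluster only as another class. For 7 clusters, 1560 control and 1474 knockdown cells, leading genes of another class or low depth left no name (a rule made with the clusters in view).

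Class sums were expressed as CPM with exact intervals. A member was called when it had at least 20 UMIs over both libraries and was lower by at least 20% or higher by at least 25%. Each group holds 1 library, so no test was made. The text names the members past those limits and the most abundant, highest and lowest of each role. Members and lists were chosen with earlier results of these data known. The interval code was tested on simulated data.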

Additional observations from a re-analysis of the deposited data

How the results depend on the processing

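No paired analysis was possible because each group holds 1 library, so leaving out a replicate was not possible either. In tumour-like cells the core and cap ratios stayed below 1 under 13 of 14 settings each. The exception was the depth window of 10000 to 20000 UMIs, with 1.08 for core and 1.05 for cap, where 0 members were lower (24.5% of all genes under that setting) and 4 higher (22.9%). Core and cap were 0.921 and 0.894 with the median of ratios over all genes as scale, 0.945 and 0.917 without mitochondrial and ribosomal UMIs, and 0.934 and 0.886 with clusters at the same weight. Core was 0.965 thinned to 500 UMIs, 0.946 as the median of the members and 0.943 with the unnamed cluster put back, a setting added after seeing the data. Cap was 0.934 with the mean over cells. Members lower numbered 6 when thinned, and 5 in a second draw, in which 17.9% of all genes were lower. They numbered 5 with the median of ratios (15.01%), 0 past 1.5-fold (5.10%) and 22 by the interval (24.1%). Members higher numbered 9 by the interval (32.5%), 2 with no minimum of UMIs (30.7%), and 0 with at least 100 UMIs (16.7%), with the mean over cells (26.2%) or past 1.5-fold (13.4%). Psmb11 reversed to 0.231 in the depth window.

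In macrophage/monocyte-like cells core was 0.980 with clusters at the same weight, 0.985 with free RNA subtracted, 0.972 with the median of ratios, 0.984 as the median of the members and 1.02 at 2000 to 5000 UMIs. Cap was 0.968 thinned, 0.964 with the median of ratios, 1.02 as the median of the members and 1.06 at 2000 to 5000 UMIs. Members higher numbered 9 by the interval (23.3% of all genes), 4 at 2000 to 5000 UMIs (19.9%), and 1 with clusters at the same weight (18.7%), with doublets kept (19.4%) or with no minimum (30.3%). Members lower numbered 10 by the interval (12.6%), and 1 with clusters at the same weight (8.40%), with doublets kept (8.52%) or with the mean over cells (11.1%). Thinned, 3 members were lower, and 2 in the second draw, in which 15.7% of all genes were lower.

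In T-like cells core and cap stayed below 1 under all 14 settings. Core was 0.904 thinned, 0.786 with free RNA subtracted and 0.945 with the mean over cells, and cap was 0.856 with free RNA subtracted, 0.948 with the mean over cells and 0.969 at 2000 to 5000 UMIs. Members lower numbered 8 at 2000 to 5000 UMIs (22.7% of all genes), 6 with the mean over cells (22.2%) and 0 past 1.5-fold (6.03%). Members higher numbered 4 thinned, and 8 in the second draw, in which 25.5% of all genes were higher. They numbered 2 by the interval (10.3%), with the mean over cells (22.6%), with no minimum (35.6%) or at 2000 to 5000 UMIs (24.0%). Psmb6 reversed to 1.08 thinned, and Psmd12 to 1.86 thinned and 1.01 at 2000 to 5000 UMIs. The thinned values rest on 1 draw. A second draw, made over all genes for the shares above, gave 4 lower and 8 higher in T-like cells where the first gave 12 and 4, 5 lower and 1 higher in tumour-like cells, and 2 lower and 2 higher in macrophage/monocyte-like cells. The cause of these changes was not tested.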

Other observations

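With each cell thinned to 500 UMIs, 86.4% of control and 86.2% of knockdown tumour-like cells held at least 1 core UMI, against 70.9% and 70.0% of T-like cells and 43.3% and 61.3% of neutrophil-like cells. Unthinned, 99.7% and 99.3% of tumour-like cells did. Cap UMIs were found in 67.1% and 64.6% of thinned tumour-like cells. Free droplets held core RNA at 3631 and 4018 CPM, and its part in these shares was not tested.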
